A study of Mus musculus with 6 samples.

Results

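C/D box small nucleolar RNAs (snoRNAs) were measured in the polycystic kidneys of female mice that carry the Pkd1 miR transgene, given saline (n = 3) or metformin (n = 3). The set holds the transcript clusters, the units of the expression array, that carry exactly 1 gene symbol in the platform annotation and whose symbol is Snord followed by a digit. These are 47 clusters of 44 genes among 65956 clusters on the array. No member shared an identical row of values with another cluster. Of the 44 genes 3 had 2 clusters (Snord13, Snord58b and Snord118), and the one with the higher mean was kept. A further 29 Snord symbols occur only in clusters that carry several symbols and were not analysed here.

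All 6 animals carried the transgene that targets Pkd1, so the comparison is between treatments within the disease model and has no wild-type arm. Metformin was injected into the peritoneum at 150 mg per kg per day from postnatal day 35 to day 63, and control animals received saline by injection. Kidneys were taken at day 63, and total RNA of the snap-frozen tissue was hybridised to 1 array per sample. The labels call the samples biological replicates. The labels state neither the promoter that drives the transgene nor what the replicate numbers stand for.

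SnoRNAs of the C/D box class are short nuclear RNAs that base-pair with ribosomal or spliceosomal RNA and direct methylation of a ribose in the paired stretch. The methyl group is added by fibrillarin (Fbl), which acts with Nop56, Nop58 and Snu13 in the same particle. Most are cut from introns of longer genes, many of which encode ribosomal or nucleolar proteins, while a few have promoters of their own. Some, such as U14 (Snord14), U8 (Snord118) and U13 (Snord13), act in the making of ribosomal RNA beyond methylation.

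The values are log2 expression as deposited, and array medians lay between 4.67 and 4.86. Of the kidney markers, the lowest value of Umod, of the loop of Henle, was 18.68, and the lowest values of the proximal tubule genes Slc34a1 and Lrp2 were 18.15 and 16.41. None of the 11 kidney markers tested passed the threshold (4 lower at an unadjusted p under 0.05). Pkd1 itself rose by 0.65 ± 0.15 (SE; limma adjusted p = 0.0317) in the metformin group. Further marker lists are given beside a background of 6.71% of all genes called higher and 9.08% called lower. Only the proliferation list held more than 1 call. All 7 proliferation markers tested had a positive difference, metformin minus saline, 6 of them past the threshold, with array means of -0.81 to -0.15 in saline and 0.26 to 0.65 in metformin relative to each gene's mean. All 9 macrophage markers had a positive difference (1 past the threshold), with array means of -1.04 to 0.36 and 0.10 to 0.63. All 11 adipocyte markers had a negative difference (1 past the threshold), with array means of -0.37 to 1.46 and -0.66 to -0.60. All 6 urothelial markers had a negative difference, none past the threshold (2 at an unadjusted p under 0.05), with array means of -0.39 to 1.44 and -0.81 to -0.28. The part of these shifts in the snoRNA results was not tested.

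Most C/D box snoRNAs did not pass the test of the treatment. Of 43 genes above the filter on low values, 2 rose, Snord14e by 2.79-fold and Snord118 by 2.09-fold, and none fell (limma, Benjamini-Hochberg adjusted p under 0.05 over all 22087 genes tested; at an unadjusted p under 0.05, 5 were higher and none lower). This is 4.65% of the members, against a background of 15.8% of all genes called in either direction, 6.71% called higher and 9.08% called lower. The median level was 10.82 for the members and 6.95 for all genes. Among the 3201 genes at or above the level of the median member, 483 were called higher (15.1%) and 660 lower, with a median difference of -0.13. The median difference of the members was 0.18 log2 units, against 0.02 for all genes. Of the 43 differences 35 were positive (81.4%, against 52.9% of all genes), in a range from -0.25 to 1.48. The number positive was 30 after centring each array on its median (69.8%, against 37.7% of all genes). After quantile normalization it was 26 (60.5%, against 35%). It was 22 without saline replicate 3 (51.2%, against 53.1%) and 27 without metformin replicate 2 (62.8%, against 54%). Because whole kidney was used, a change in the number of cells of a type and a change in RNA per cell cannot be told apart.

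**Figure D1:**
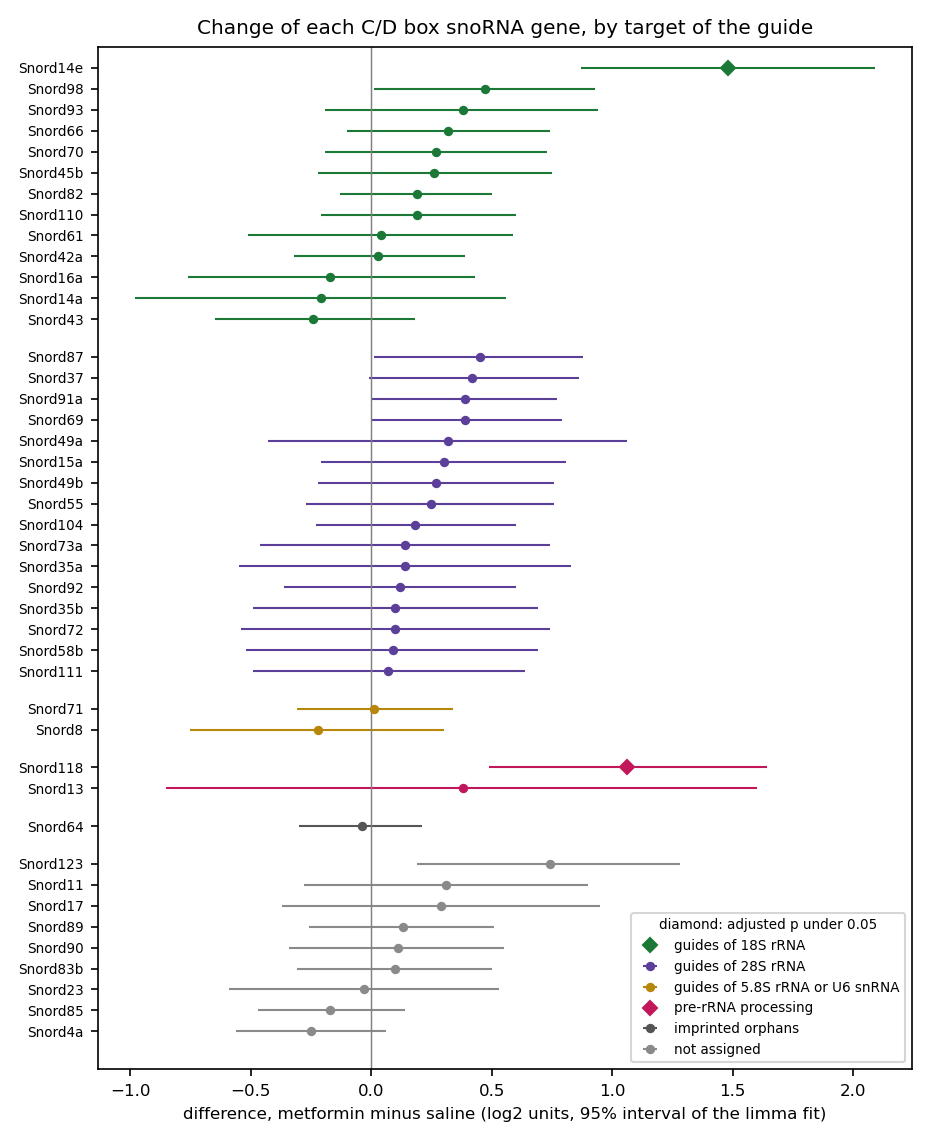
Difference between metformin and saline in log2 units for each of the 43 C/D box snoRNA genes tested, with the 95% interval of the limma fit. Genes are grouped by the target RNA assigned to the guide, mostly from human snoRNAs. Diamonds mark the 2 genes past the threshold, Snord14e at 1.48 and Snord118 at 1.06, and the remaining points lie between -0.25 and 0.74.

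Snord14e, a copy of U14 annotated within the chaperone gene Hspa8, showed the widest separation. U14 guides methylation of 18S rRNA and also takes part in the cleavage of its precursor. In order of replicate number its values were 10.38, 10.47 and 9.41 with saline and 11.54, 11.53 and 11.62 with metformin. Each metformin value lay above each saline value, and the metformin values were close together (SD 0.05, against 0.59 in saline, where array 3 was the lowest). The difference was 1.48 ± 0.26 (SE; 95% interval 0.87 to 2.09; limma adjusted p = 0.0148). The call ended when metformin replicate 2 was left out (limma adjusted p = 0.0516) and was kept when any other array was. The range of the difference over these fits was 1.14 to 1.67. The cluster is one of those that the array design leaves unmapped. Snord14a, the U14 copy annotated in the ribosomal protein gene Rps13, had values of 6.63, 7.48 and 7.09 with saline and 6.28, 7.51 and 6.78 with metformin, a difference of -0.21 (95% interval -0.98 to 0.56). The copies are close in sequence, and probes may share signal. Snord14c and Snord14d are annotated in clusters of several symbols and were not analysed here.

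Snord118, the U8 snoRNA, was the other gene that rose. U8 is needed for the maturation of 5.8S and 28S rRNA, is transcribed from its own promoter, and is mutated in a human brain disease with calcifications and cysts. Values were 5.73, 6.27 and 5.59 in saline and 6.52, 7.36 and 6.89 in metformin. The groups did not overlap, with array 2 the highest in each. The difference was 1.06 ± 0.25 (SE; 95% interval 0.49 to 1.64; limma adjusted p = 0.0305). Leaving out an array ended this call in 4 of 6 fits: the limma adjusted p became 0.11 with the first saline array removed, 0.0705 with the third, 0.0814 with the second metformin array removed and 0.0689 with the third. It also ended after quantile normalization (difference 0.87, adjusted p = 0.0502) or centring of each array on its median (0.97, adjusted p = 0.0524). A second cluster named Snord118 had values between 3.27 and 3.78 and lay below the filter.

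**Figure D2:**
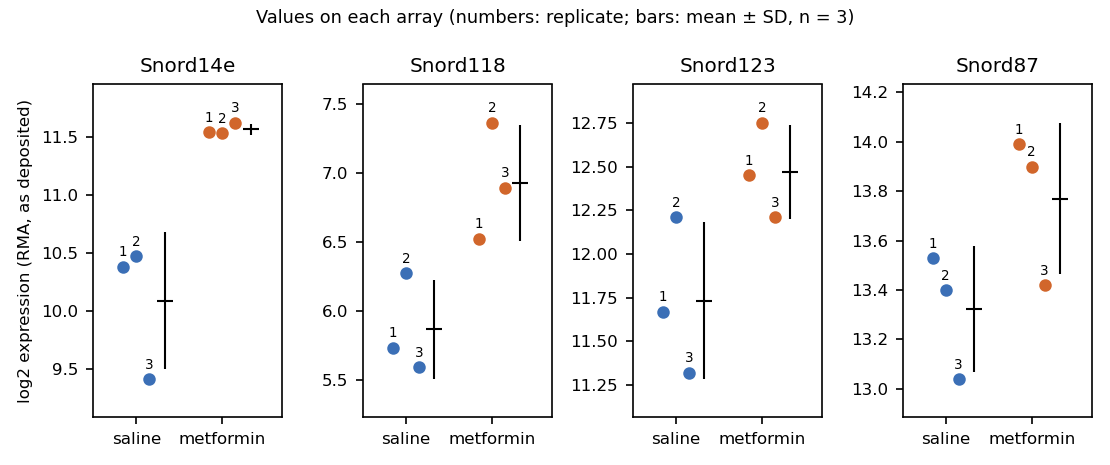
Deposited log2 expression of Snord14e, Snord118, Snord123 and Snord87 on each array, with the replicate number beside each point and the mean ± SD (n = 3) at the right of each group; each panel has its own vertical axis. Snord14e separates the groups by more than 1 log2 unit, from 10.47 as the highest saline value to 11.53 as the lowest metformin value, whereas Snord87 overlaps.

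The number of members called changed with the array left out. It rose to 5 with saline replicate 2 removed. It stayed at 2 with metformin replicate 1 removed, and was 1 with either saline replicate 1, saline replicate 3 or metformin replicate 3 removed. With metformin replicate 2 removed limma called 0 (2 at an unadjusted p under 0.05). With the replicate number of the labels as a block it was 4, all higher, against a background of 19.8% of all genes called in either direction and 8.8% called higher. The genes added by the block were Snord123 (adjusted p = 0.017) and Snord87 (adjusted p = 0.027). Snord123 is annotated within the long noncoding RNA gene Snhg18. Its values were 11.67, 12.21 and 11.32 in saline and 12.45, 12.75 and 12.21 in metformin. The lowest metformin value and the highest saline value were equal at this rounding. The difference was 0.74 ± 0.23 without the block and 0.74 ± 0.10 with it (SE), with an adjusted p = 0.0726 without it in limma. Snord87, a 28S guide annotated within Snhg6 and Mcmdc2, had values of 13.53, 13.40 and 13.04 in saline and 13.99, 13.90 and 13.42 in metformin. Its groups overlapped, while metformin was above saline within each replicate number, by 0.46, 0.50 and 0.37.

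Arrays of one treatment differed from each other in these RNAs. The median standard deviation within a group was 0.33 log2 units for the 43 members and 0.15 over all genes tested. Array 2 was the highest of its group for 29 members in saline and for 37 members in metformin. Array 3 was the lowest for 27 members in saline and for 25 in metformin. Median deviations from each gene's own mean were, by replicate number, -0.13, 0.15 and -0.31 with saline and 0.03, 0.39 and -0.05 with metformin. On saline array 2 the members thus lay above their level on metformin arrays 1 and 3 at the median, and metformin array 2 held the highest value of 27 members.

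**Figure D3:**
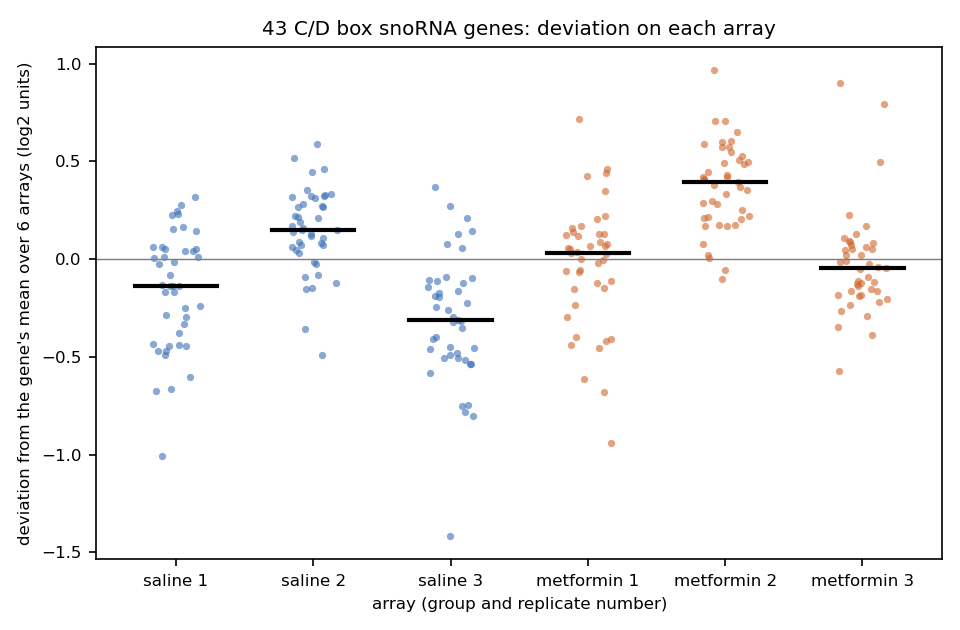
Each point is 1 of 43 C/D box snoRNA genes, plotted as its deviation from its own mean over the 6 arrays in log2 units; black lines are medians. The medians are highest on array 2 of each group, 0.15 in saline and 0.39 in metformin, and lowest on saline array 3 at -0.31.

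Splitting the variation of each gene over the 6 arrays into a part for treatment, a part for replicate number and a rest gave median shares of 15.1%, 68.2% and 10.1% for the members. Over all genes tested the medians were 38.6%, 31.8% and 15.9%. Replicate number has more levels than treatment, so its share tends to be larger even where neither has an effect. The members also share the same arrays and are not separate observations. The share of replicate number exceeded that of treatment in 36 of 43 members (83.7%) and in 47.6% of all genes. Both members past the threshold were among the exceptions, with 82.5% for treatment in Snord14e and 73.5% in Snord118. They were picked by the test of treatment on the same values, so a large share for treatment follows from that choice. With replicate number as a block, the median standard error of a member's difference was 0.11 in place of 0.21. Metformin exceeded saline in 22 of 43 members for replicate number 1, in 32 for number 2 and in 32 for number 3. It did so for each of the 3 numbers in 15 members (34.9%), near the 29.9% of all genes, and for none of them in 5 (11.6%), against 29% of all genes with metformin below saline in each.

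Snord13 (U13), which helps direct acetylation of 18S rRNA and has its own promoter, had a share of 91.2% for replicate number. Its values were 7.99, 9.07 and 9.37 in saline and 8.06, 9.60 and 9.90 in metformin. Array 1 was lowest by over 1 log2 unit in both groups, and the groups overlapped. The difference was 0.38 ± 0.52 (SE; 95% interval -0.85 to 1.60; limma adjusted p = 0.672). The second cluster of Snord13 had 7.94, 8.74 and 8.85 against 7.76, 9.25 and 9.74, with the same order of arrays within each group.

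Grouped by assigned target, the 13 tested guides of 18S rRNA had a median difference of 0.19, with 1 gene risen (Snord14e), none fallen and 12 not past the threshold. Next in the fit was Snord98, with values of 8.62, 9.37 and 8.96 in saline and 9.68, 9.30 and 9.39 in metformin (difference 0.47, limma adjusted p = 0.149; 0.67 and 0.0344 without saline replicate 2). Those with the next smallest p were Snord66 at 0.32 and Snord93 at 0.38. Negative differences were seen for Snord43 (-0.24), Snord14a (-0.21) and Snord16a (-0.17).

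Of 16 tested guides of 28S rRNA none passed the threshold (1 at an unadjusted p under 0.05, Snord87 at 0.45). On the deposited scale 16 of 16 differences were positive (against 52.9% of all genes), from 0.07 to 0.45 with a median of 0.22. After centring of the arrays 14 were positive (87.5%, against 37.7% of all genes), and after quantile normalization 12 were (75%, against 35%). Removal of saline replicate 3 left 9 of the 16 positive (56.2%, against 53.1% of all genes). That of metformin replicate 2 left 11 (68.8%, against 54%) and that of saline replicate 1 left 14 (87.5%, against 52.9%). The member of this list below the filter, Snord88c, had values of 4.12, 4.17 and 3.88 in saline and 3.84, 4.12 and 3.80 in metformin. Snord69, annotated in the nucleolar GTPase gene Gnl3, had values of 16.86, 17.46 and 16.98 in saline and 17.42, 17.68 and 17.39 in metformin (0.39, limma adjusted p = 0.161; 0.57 and 0.0275 without saline replicate 2). Snord37, annotated in the elongation factor gene Eef2, had 6.27, 6.69 and 6.54 against 6.77, 7.32 and 6.69 (0.42, adjusted p = 0.168). Snord91a stood at 0.39 (adjusted p = 0.157). After quantile normalization the differences of these genes were smaller, 0.20 for Snord69, 0.20 for Snord37 and 0.17 for Snord91a.

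The 5.8S guide Snord71 and the U6 guide Snord8 had differences of 0.01 (95% interval -0.31 to 0.34) and -0.22 (-0.75 to 0.30). Snord64, an imprinted snoRNA with no known target in ribosomal RNA, had -0.04 (-0.30 to 0.21). Its values were 7.29, 7.42 and 7.11 in saline and 7.23, 7.15 and 7.30 in metformin, with full overlap. Among 9 genes to which no target was assigned, none passed (1 at an unadjusted p under 0.05, Snord123), 6 differences were positive and 3 negative. The lowest of these was Snord4a at -0.25 (limma adjusted p = 0.251), with 7.82, 7.99 and 7.58 against 7.56, 7.68 and 7.41. After quantile normalization Snord4a was called lower (-0.45, adjusted p = 0.0315).

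A missed threshold does not show equal levels, so the intervals were counted. For 38 of 43 members the 95% interval of the difference lay within 1 log2 unit of 0 on both sides, and for 4 it lay within 0.5. For 5 the interval reached 1 log2 unit or more, Snord14e, Snord118 and Snord123 among them. The sign of the difference was kept in each leave-one-out fit for 22 members and turned in at least 1 for the other 21. Values of the groups did not overlap, with metformin above, in 4 members (Snord14e, Snord118, Snord123 and Snord37, the last 2 by less than the rounding), against a background of 17.8% of all genes, and with metformin below in none, against 19.4%.

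The direction of the set as a whole rested on 2 arrays. The median difference was 0.01 without saline replicate 3 and 0.05 without metformin replicate 2, and between 0.17 and 0.31 without any 1 of the others. Centring of the arrays lowered it to 0.09 and quantile normalization to 0.10. The median of all genes moved from 0.02 to -0.07 and -0.10 in these scalings, so the members lay above it by 0.17 and 0.20. Their distance from the median of all genes was -0.01 without saline replicate 3 and 0.02 without metformin replicate 2.

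Intronic snoRNAs leave the same primary transcript as the exons of their host. Of the 44 members 41 lie within the span of a longer gene in RefSeq. In 25 pairs of a member with such a gene that had a cluster of its own (21 snoRNAs, 24 longer genes), both differences were positive in 17, both negative in 2 and of opposite sign in 6. Across the pairs the differences correlated at r = 0.09, a description over genes that share arrays and in part a host. Over the 6 arrays the correlation of a member with its longer gene had a median of 0.44 and ranged from -0.49 to 0.86.

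**Figure D4:**
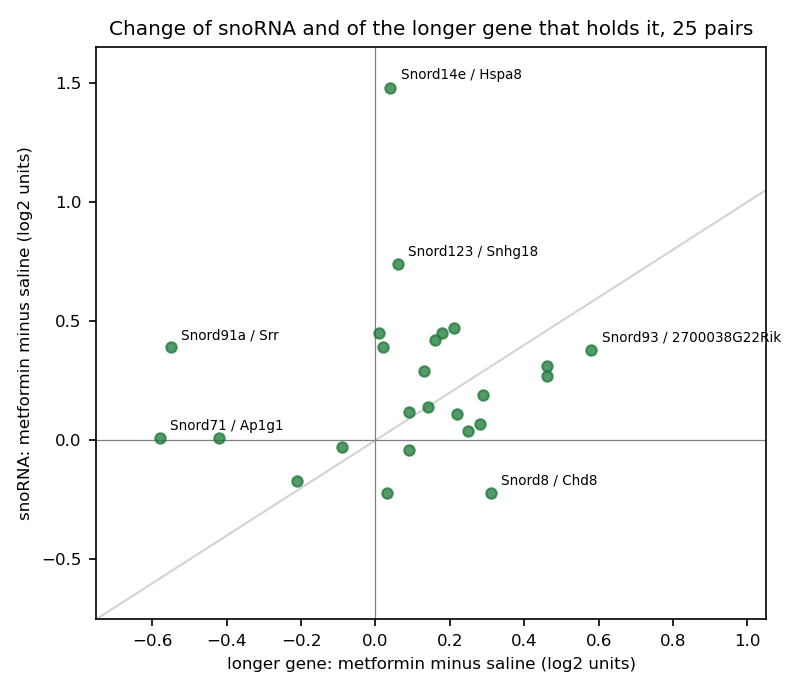
Difference between metformin and saline in log2 units for 25 pairs of a C/D box snoRNA (vertical) and the longer gene whose span holds it (horizontal); the grey diagonal marks equal differences. Snord14e and Snord123 lie far above the diagonal, at 1.48 and 0.74 where Hspa8 and Snhg18 have 0.04 and 0.06.

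Hspa8, the constitutive cytosolic chaperone, had values of 19.50, 19.50 and 19.52 in saline and 19.54, 19.52 and 19.57 in metformin, a difference of 0.04 ± 0.08 (SE; limma adjusted p = 0.805), while its snoRNA Snord14e rose by 1.48. The 4 clusters that carry the Hspa8 symbol alone had means of 19.2 to 19.5, near the highest value of the whole table (19.9), and differences of 0.04 to 0.07. Snhg18 had 8.77, 8.35 and 7.98 against 8.64, 8.45 and 8.19 (0.06, adjusted p = 0.876), beside 0.74 for Snord123. Snhg6 stood at 0.01 and Mcmdc2, which also spans Snord87, at 0.18, beside 0.45 for Snord87. Other pairs lay closer, such as Nop58 at 0.46 with Snord70 at 0.27 and Snord11 at 0.31, the nucleolin gene Ncl at 0.29 with Snord82 at 0.19, and Rps3a1 at 0.14 with Snord73a at 0.14.

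Of the 24 longer genes 3 fell and none rose (4 higher at an unadjusted p under 0.05), against 9.08% of all genes called lower and 6.71% called higher. Ap1g1, a subunit of a clathrin adaptor, fell by 0.58 ± 0.10 (SE; limma adjusted p = 0.0122), from 14.08, 14.12 and 14.25 to 13.51, 13.55 and 13.65. Gm17344 (-0.42, adjusted p = 0.0467) spans the same snoRNA, Snord71, whose own difference was 0.01. The serine racemase gene Srr (-0.55, adjusted p = 0.0461) spans Snord91a, as does Tsr1 (0.02). The RefSeq table gives no strand, so a gene on the other strand than the snoRNA counts here too. The 13 tested members within ribosomal protein genes had a median difference of 0.10, the 21 within other protein-coding genes 0.26, and the 6 within long noncoding RNA genes alone 0.29. SnoRNAs within one gene did not always share a direction, such as Snord42a (0.03) and Snord4a (-0.25) within Rpl23a, or Snord83b (0.10) and Snord43 (-0.24) within Rpl3.

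Among proteins of the C/D box particle, Fbl rose by 0.41 ± 0.11 (SE; limma adjusted p = 0.0417), from 9.19, 9.15 and 9.02 to 9.60, 9.63 and 9.37. Nop58 had a difference of 0.46 (adjusted p = 0.278), and Nop56 and Snu13 had no cluster of their own in the test. Of 12 assembly, capping and debranching factors 1 fell, Znhit3 at -0.34 (adjusted p = 0.048), and none rose (none at an unadjusted p under 0.05). Of 14 exonuclease and exosome genes 3 rose and none fell (4 lower at an unadjusted p under 0.05): the cytoplasmic exonuclease Xrn1 by 0.42, the exosome subunit Exosc7 by 0.36 and the oligoadenylating polymerase Tent4b by 0.31. None of 6 proteins of the H/ACA particle passed (2 at an unadjusted p under 0.05), with Dkc1 at -0.45 (adjusted p = 0.0604). For these lists too, the background over all genes was 6.71% called higher and 9.08% called lower.

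In the small subunit processome, which assembles around the U3 snoRNA, 6 of 28 genes fell and none rose (1 higher at an unadjusted p under 0.05). Over all genes 9.08% were called lower and 6.71% higher. Imp4 fell by 1.04, from 10.48, 9.76 and 9.68 to 8.91, 8.97 and 8.92, Wdr46 by 0.90, Imp3 by 0.88, Wdr36 by 0.55, Nol11 by 0.38 and Rcl1 by 0.35. The list median was -0.09, and 11 of 28 differences were positive. Of 15 RNA polymerase I and nucleolar genes 1 fell, the polymerase subunit Polr1e at -0.35 (limma adjusted p = 0.0439), and none rose (2 higher at an unadjusted p under 0.05). Among these 12 protein genes, Ap1g1, Gm17344 and Srr, 15 calls in all, 3 held in each leave-one-out fit (Wdr46, Wdr36 and Ap1g1), and the rest ended in at least 1, at adjusted p up to 0.154. For metformin arrays 1, 2 and 3 left out in turn, 12, 12 and 9 calls ended, and for saline arrays 1, 2 and 3, 11, 7 and 10. Centring each array ended the calls of Fbl, Xrn1, Exosc7 and Tent4b, and quantile normalization those of Fbl, Exosc7 and Tent4b. With the replicate block those of Znhit3, Tent4b, Rcl1 and Polr1e ended.

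Beside the C/D box genes, 6 of 17 H/ACA snoRNA genes rose (35.3%) and none fell (none lower at an unadjusted p under 0.05). Of 401 microRNA precursor genes 82 rose (20.4%) and 2 fell. The background over all genes was 6.71% called higher and 9.08% called lower. Median differences of the H/ACA and microRNA genes were 0.39 and 0.26. Mean deviations of the C/D box genes overlapped between the groups, from -0.31 to 0.15 in saline and from -0.03 to 0.37 in metformin. Those of H/ACA genes did not, from -0.62 to -0.27 and from 0.30 to 0.54, nor did those of microRNA genes, from -0.21 to -0.11 and from 0.08 to 0.26. The H/ACA differences ran from -0.11 to 4.38, and the largest weighs on the means of that class. The share of replicate number exceeded that of treatment in 10 of 17 H/ACA genes and in 176 of 401 microRNA genes. The difference between the classes was not tested.

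**Figure D5:**
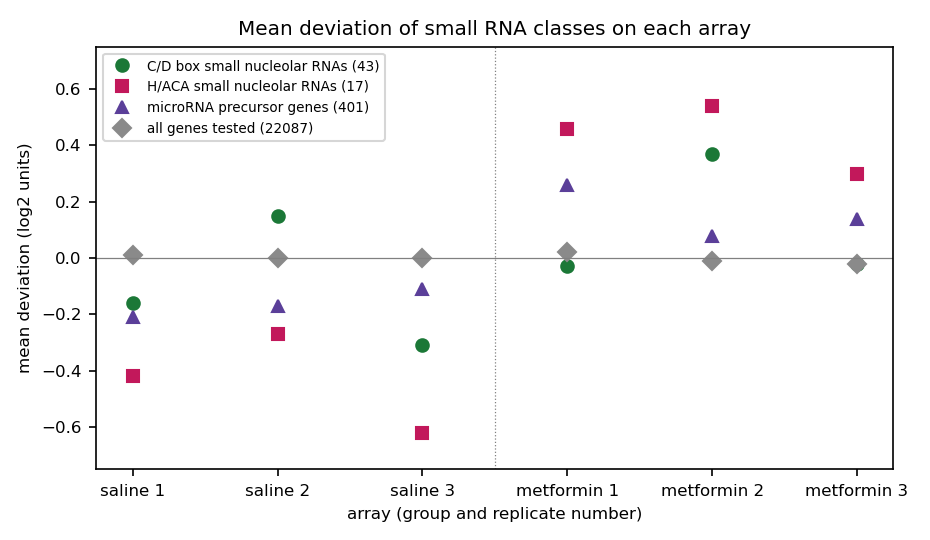
Mean deviation from each gene's own mean, in log2 units, on each array for C/D box snoRNAs (43 genes), H/ACA snoRNAs (17), microRNA precursors (401) and all genes tested (22087). The C/D box genes are highest on array 2 of each group, at 0.15 and 0.37, while H/ACA and microRNA genes lie below 0 on the saline arrays and above 0 on the metformin arrays.

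The genes outside the class whose values over the 6 arrays were most like the mean of the members were Slc12a9 (r = 0.994), Dbnl (0.993), Bcl2l1 (0.992), Prpsap1 (0.992) and the ribosomal protein gene Rpl27 (0.983). Their differences between treatments ran from 0.06 for Slc12a9 to 0.15 for Dbnl and Bcl2l1, with limma adjusted p from 0.419 to 0.714. These correlations over 6 arrays were picked as the highest of all genes outside the class, with Xist left out beforehand, and describe likeness only.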

How the data were processed

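The authors deposited log2 expression per transcript cluster. The submitters' processing notes name RMA and version 4.0 of Transcriptome Analysis Console. Per the labels' protocols, TRIzol RNA was labelled by the GeneChip WT PLUS method. No source used here gives the RMA settings. Values ran from 1.94 to 19.9. A cluster reads sequence, so mature snoRNA and host intron cannot be told apart, and signals of different clusters do not rank abundance.

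Clusters with the lowest 33.3% of means (under 4.03) were left out, and the highest-mean cluster stood for a symbol. Symbols outside the set were updated through Entrez numbers in RefSeq GRCm38.p6. That table also gave the longer genes around members. It holds no strand, so the same-strand rule that had been planned was not applied. The 22087 genes were tested with limma 3.58.1 (R 4.3.3, lmFit and eBayes, two-sided, Benjamini-Hochberg), and the test was also run on simulated data. Only Snord88c fell below the filter. Members and lists were chosen with earlier results of these data known. Targets were assigned from general knowledge, mostly of human snoRNAs, so a gene listed without a target may still have one.

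Named were members past the threshold, the smallest p values per target list and among all members, members sharing a longer gene, those genes, and list genes past the threshold or with the smallest p.

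Deviations from group means correlated between same-numbered arrays at 0.118, 0.145 and 0.541. Saline 2 with metformin 1, which differ in number, reached 0.299, above 0.118 and 0.145. The correlations thus cannot settle whether the numbers are pairs. The main fit did not use them, and the replicate block is an alternative. P-values set the difference between the groups against the spread between these samples, as moderated over all genes by eBayes. The alternatives are given in the closing section.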

Additional observations from a re-analysis of the deposited data

How the results depend on the processing

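The count of C/D box snoRNA genes past the threshold was 2; it was 1 after centring arrays on their median, 4 with the replicate block and 0 to 5 when 1 array was left out. The median difference of 0.18 stayed positive under each alternative, between 0.01 and 0.31 in leave-one-out fits. Relative to the median of all genes it was -0.01 without saline replicate 3 and 0.02 without metformin replicate 2. Among longer genes around the members 3 were called, all lower. The count was 4 with the replicate block (1 higher and 3 lower) and 2 with trend and robust options. It was 1 with no filter on low values and 1 to 2 in leave-one-out fits. Over all genes 3488 were called, and 842 to 3961 in leave-one-out fits. The share of higher genes among those called fell from 42.5% to 25.2% with centring and 20.7% with quantile normalization. Beyond the calls named with the results, array weights called Snord123 (adjusted p = 0.0445). The block changed no call of Snord14e or Snord118. Other filters, and trend and robust options, left both calls in place. The mean over a symbol's clusters does not test them, because neither gene had a second cluster past the filter and their values stayed the same. With 3 arrays per group the precision is limited by their number.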
